A study of Homo sapiens with 6 samples.

Results

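The pyruvate dehydrogenase complex and the enzymes that switch it off and on were followed at the mRNA level in MDA-MB-231, a human triple-negative breast cancer cell line, kept on glucose or on fructose. The members were 10 genes named by symbol: the kinases PDK1, PDK2, PDK3 and PDK4, the phosphatases PDP1 and PDP2, and the core subunits PDHA1, PDHB, DLAT and PDHX. The array annotation paired 9 of the 10 symbols with a probe set, out of 18404 genes represented in all, and each of the 9 had a single probe set. PDP2 was not analysed here. They are defined by their symbols and not by a level or a difference.

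The glucose group was 3 cultures in DMEM with 25 mM glucose, and the fructose group was 3 cultures in DMEM with 10 mM fructose. Every culture was kept in its sugar for 25 days, was a separately adapted batch of the same line, and was harvested 24 hours or so after a medium change, when the dish was about 70% covered. Sugar type, sugar concentration and absence of glucose differed together and cannot be told apart. One array was run per culture, and the values are intensities that the authors made with RMA, on a linear scale. The series is titled as a study of restricted glycolysis, and the comparison here asks whether transcripts of the pyruvate dehydrogenase switch differed between the sugars.

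Pyruvate dehydrogenase is the mitochondrial complex that turns pyruvate, the end product of glycolysis, into acetyl-CoA for the citric acid cycle. Its first enzyme, E1, is built of the alpha subunit PDHA1 and the beta subunit PDHB, its second, E2, is DLAT, and PDHX binds the third, E3 (DLD), to the core. The PDK kinases phosphorylate serines of PDHA1 and so stop the complex, and the PDP phosphatases remove these phosphates and restart it. In cancer cells the kinases are known for holding pyruvate back from the mitochondria, and PDK1 is a textbook target of the hypoxia factor HIF. This is background. The arrays measured mRNA, and protein amounts and phosphorylation were not measured here.

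Markers of the line and of other cells were read first. VIM, CD44, AXL and CAV1, all high in mesenchymal-like breast cancer cells, were each brighter in glucose than at least 98.5% of the 28230 tested probe sets. The epithelial cadherin CDH1 and the progesterone receptor PGR were brighter than only 19.3% and 11.9%, the oestrogen receptor ESR1 than 34.0% and ERBB2 than 69.6%. The leukocyte marker PTPRC and the fibroblast markers DCN and LUM lay between 5.15% and 7.60%, CD3E, PDGFRB and COL1A1 at 31.3%, 34.7% and 58.0%, and CD68, which is also lysosomal, at 98.5%. Their part in the results was not tested. None of the 15 measured markers passed the test between the sugars (limma adjusted p of 0.43 or more, and 0 at an unadjusted p under 0.05). Array medians lay between 33.1 and 34.8. Fructose replicate 2 had the lowest array weight in limma, 0.725.

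Over all tested probe sets 1 passed at a limma adjusted p under 0.05 (0.00354%), that of TXNIP, and none of the 9 members did. The count over all probe sets depended on the setting, from 0 with an unmoderated test to 473 with an intensity trend and robust variances. At an unadjusted p under 0.05 there were 2 of 9, PDK1 and PDK4, where 13.1% of all probe sets met that mark, and no alternative tool or setting run here took a member past the adjusted threshold. Both were lower in fructose, the direction in which 5.43% of all probe sets met the unadjusted mark. The same 2 were the members whose glucose and fructose arrays did not overlap (20.2% of all probe sets, 8.81% being lower in fructose). Of the 9 members 6 had a mean difference below 0, against 43.8% of all probe sets, and the median difference was -0.03 for the members and 0.02 for all probe sets (log2, fructose minus glucose). Lower RNA per cell and fewer cells with the transcript cannot be told apart in these bulk cultures.

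PDK4, the kinase usually induced by fasting and fatty acids, had intensities of 25.2, 23.9 and 28.7 in glucose and of 21.4, 19.8 and 18.8 in fructose. No fructose array came up to the glucose range. The means were 26.0 ± 2.49 (SD, n = 3) on glucose and 20.0 ± 1.31 (SD, n = 3) on fructose, and the log2 difference was -0.37 (SE 0.09, 95% interval -0.59 to -0.15, limma adjusted p = 0.21). Its signal was dim, since only 45.2% of tested probe sets were dimmer in glucose. Of all tested probe sets, 2.37% had a smaller p than PDK4.

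PDK1, the kinase known for its induction by hypoxia, read 180, 197 and 192 in glucose and 154, 156 and 169 in fructose. Here too the groups did not overlap, and the gap between the lowest glucose and the highest fructose array was 0.09 on the log2 scale. The mean was 189.8 ± 8.69 (SD, n = 3) for glucose and 159.7 ± 8.11 (SD, n = 3) for fructose. That is a log2 difference of -0.25 (SE 0.07, 95% interval -0.42 to -0.08, limma adjusted p = 0.25), or 0.842 of the glucose level (95% interval 0.746 to 0.949). A smaller p was found for 4.58% of tested probe sets.

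PDK3, a kinase that is little inhibited by pyruvate, pointed the other way. Its intensities were 36.0, 40.7 and 41.7 in glucose and 48.9, 47.0 and 40.5 in fructose. Fructose replicates 1 and 2 stood above all glucose arrays, whereas fructose replicate 3 lay among them. The log2 difference was 0.20 (SE 0.10, 95% interval -0.03 to 0.44, limma adjusted p = 0.44). PDK2, the most widely expressed kinase across tissues, had 172, 177 and 194 in glucose and 185, 203 and 177 in fructose. These ranges overlapped, with a difference of 0.06 (95% interval -0.14 to 0.26, limma adjusted p = 0.81).

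**Figure D1:**
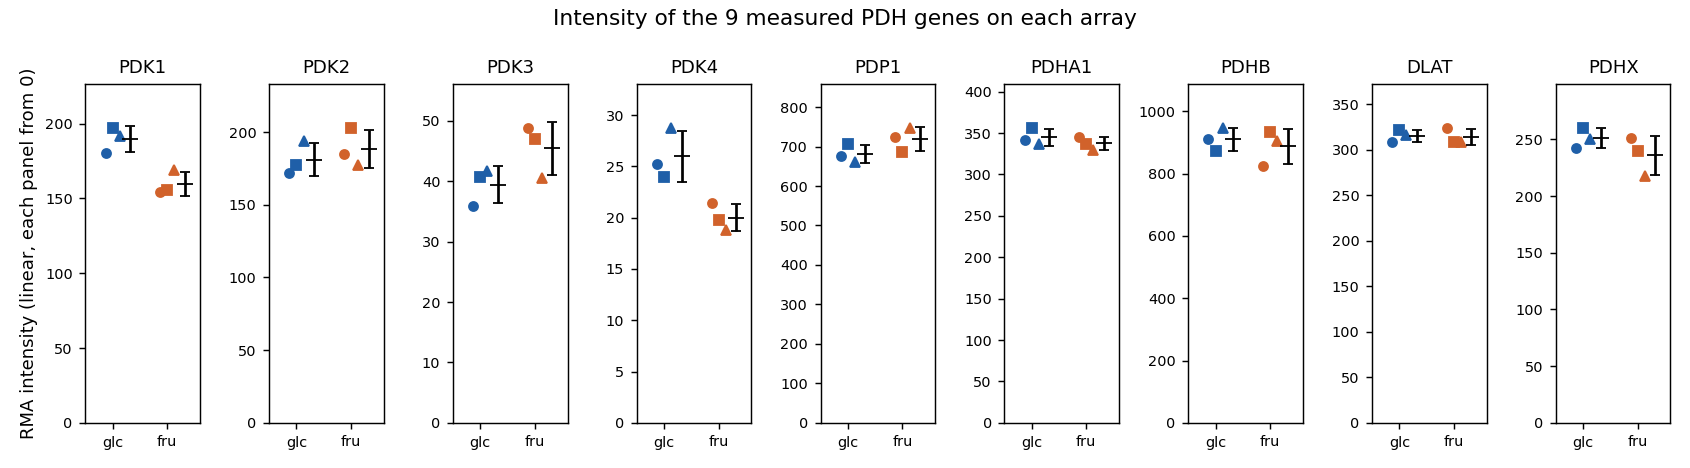
RMA intensity (linear scale, each panel from 0) of the 9 measured genes on the 3 glucose (glc, blue) and 3 fructose (fru, orange) arrays. Circles, squares and triangles are replicates 1, 2 and 3, and the black marks are the mean and SD of each group. Only PDK1 and PDK4 have groups that do not overlap, with means of 189.8 and 159.7 for PDK1 and of 26.0 and 20.0 for PDK4.

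The promoter windows of the kinases show how different their starts are in sequence, and they are given for PDK1 and PDK4, which were lower in fructose, and for PDK3, which was not. They run from 250 bases before to 50 bases after a gene's start and come from RefSeq (GRCh38.p14). Capitals mark ACGTG or its reverse complement CACGT, core letters that hypoxia response elements can share with the E-box CACGTG. Other spellings of the hypoxia core were not searched. PDK1 is on the plus strand at chr2:172555840-172556139, PDK3 on the plus strand at chrX:24465036-24465335 and PDK4 on the minus strand at chr7:95596467-95596766, each written 5′ to 3′ along the gene.
PDK1: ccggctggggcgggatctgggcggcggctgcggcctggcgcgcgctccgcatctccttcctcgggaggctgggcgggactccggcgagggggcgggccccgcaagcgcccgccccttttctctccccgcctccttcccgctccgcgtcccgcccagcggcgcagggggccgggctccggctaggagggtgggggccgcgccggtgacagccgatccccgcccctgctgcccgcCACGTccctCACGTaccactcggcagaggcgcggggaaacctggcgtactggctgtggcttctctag
PDK3: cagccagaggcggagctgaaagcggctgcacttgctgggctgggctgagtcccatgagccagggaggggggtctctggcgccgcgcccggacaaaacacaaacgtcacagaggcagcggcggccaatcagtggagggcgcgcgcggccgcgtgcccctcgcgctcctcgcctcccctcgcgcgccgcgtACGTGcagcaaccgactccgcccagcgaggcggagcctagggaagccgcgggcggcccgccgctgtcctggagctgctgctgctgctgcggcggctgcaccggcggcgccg
PDK4: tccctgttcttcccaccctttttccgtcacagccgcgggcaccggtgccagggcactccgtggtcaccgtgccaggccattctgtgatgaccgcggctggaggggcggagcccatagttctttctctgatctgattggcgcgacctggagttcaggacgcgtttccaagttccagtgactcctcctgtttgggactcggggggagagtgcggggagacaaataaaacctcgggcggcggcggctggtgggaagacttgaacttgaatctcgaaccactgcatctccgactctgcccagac

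The PDK1 window held 2 matches, which began 17 and 8 bases before the start, the PDK3 window held 1, beginning 61 bases before it, and the PDK4 window held 0. Of all 35116 promoter windows of this length, 21.4% had at least 1 match on either strand. The median GC content of all windows was 58.7%. Most windows of the members lay above it, and the shares were not matched for GC content. RefSeq lists a second PDK1 start, whose window had 0 matches and a GC content of 36.3%, against 77.0% in the window printed. The arrays do not tell these starts apart. Windows of 9 of the 10 members were searched, 13 in all. PDP1 was left out of the search, so its promoter is not described, whereas shares over all windows carry no such omission. Of the 13 windows 7 held the core, among them windows of PDK2, PDP2, PDHB, DLAT and PDHX. The 2 PDHX windows overlap in position. The full E-box CACGTG, which holds the 5-letter core on both strands and is counted for each, was present in a window of PDK2, of PDP2 and of PDHB and in 7.26% of all windows. GTAAACA, letters bound by FOXO factors, and CAAGGTCA, bound by oestrogen-related receptors, had 0 matches in the 13 windows and occurred in 3.42% and 1.28% of all windows. AGGTCA, the core letters bound by many nuclear receptors, occurred once, in DLAT, and in 13.8% of all windows, and it lies within CAAGGTCA. Such a match is a description of letters in a short window.

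PDP1, the calcium-stimulated phosphatase that reactivates the complex, read 676, 706 and 660 in glucose and 723, 687 and 747 in fructose. Fructose replicates 1 and 3 stood above every glucose array, and replicate 2 lay within their range. The log2 difference was 0.08 (SE 0.07, 95% interval -0.08 to 0.24, limma adjusted p = 0.67).

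The core subunits had differences between -0.09 and -0.01. PDHA1, the E1 alpha subunit that carries the regulatory serines, had 342, 356 and 337 in glucose and 345, 337 and 330 in fructose, a log2 difference of -0.03 (95% interval -0.18 to 0.12). PDHB, the E1 beta subunit, had 910, 871 and 947 in glucose and 824, 933 and 906 in fructose, a difference of -0.04 (95% interval -0.22 to 0.15). The groups of both genes overlapped, and for PDHB the lowest array was fructose replicate 1. DLAT, the acetyl-transferring E2 enzyme, had 309, 322 and 316 in glucose and 324, 309 and 309 in fructose, a difference of -0.01 (95% interval -0.16 to 0.14) whose sign depended on the setting: it was above 0 without glucose replicate 2, without fructose replicate 2 or 3, after repeated quantile normalization and with array weights. PDHX, which anchors E3, had 243, 260 and 251 in glucose and 251, 239 and 217 in fructose. Its difference was -0.09 (95% interval -0.28 to 0.09), and fructose replicate 3 was its lowest array.

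The limma adjusted p of these 4 subunits lay between 0.67 and 0.97. The intervals, turned to ratios of fructose over glucose, ran from 0.881 to 1.09 for PDHA1, from 0.860 to 1.11 for PDHB, from 0.896 to 1.10 for DLAT and from 0.825 to 1.07 for PDHX. PDHA2, an intronless copy of PDHA1 that is normally used in testis, was dim in glucose (brighter than 27.6% of tested probe sets), and reads of one copy by probes of the other were not tested.

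**Figure D2:**
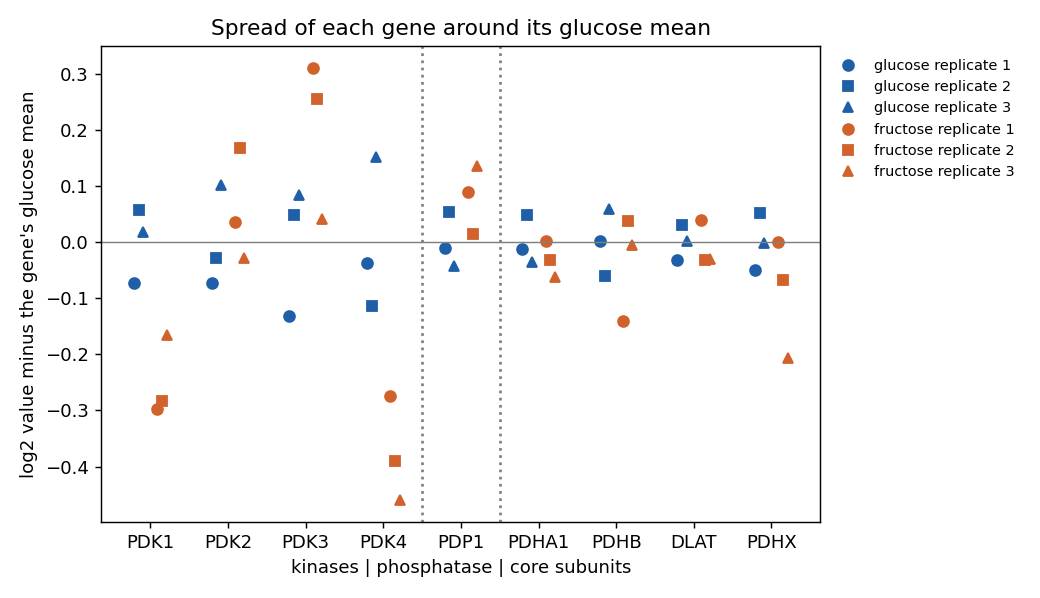
Log2 value of each gene on each array minus that gene's mean in glucose, for the kinases, the measured phosphatase and the core subunits (blue, glucose; orange, fructose; circles, squares and triangles for replicates 1, 2 and 3). The kinases spread from -0.37 for PDK4 to 0.20 for PDK3 in mean difference, and the core subunits from -0.09 to -0.01.

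Set against the phosphatase and the core subunits, the 4 kinases did not point one way. Their median difference was -0.10, with 2 kinases higher and 2 lower in fructose, against -0.03 for the 5 other measured members. The kinase median minus the median of the others was -0.06, a description without a test. Per array, from values centred on the glucose means, this quantity was -0.06, -0.04 and 0.09 in glucose and -0.12, -0.03 and -0.07 in fructose. The groups overlapped, and the opposite signs of the kinases are hidden in the median.

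Ratios within an array set each kinase against its partners. All ratios of a kinase share that kinase's values, so they are one observation seen against several partners. The ratio of PDK4 to each of the 5 measured members that are not kinases did not overlap between the sugars, where 19.2% of all tested probe sets did not overlap in their ratio to PDP1, 20.9% to PDHA1, 14% to PDHB, 19.7% to DLAT and 22.9% to PDHX. The log2 differences of the PDK4 ratios ran from -0.45 against PDP1 to -0.28 against PDHX. PDK1 did not overlap in its ratio to 4 of the 5, the exception being PDHX, and its ratio to PDP1 differed by -0.33, with -0.39, -0.30 and -0.30 in fructose against a glucose range of -0.06 to 0.06. PDK3 did not overlap in 1 of 5, its ratio to PDHX, which was higher in fructose by 0.29, and PDK2 in 0 of 5. Among the kinases, the ratio of PDK3 to PDK4 stood apart most, these being the kinases with the highest and the lowest difference. It was at 0.58, 0.65 and 0.50 in fructose, while glucose arrays read -0.09, 0.16 and -0.07. The ratio of PDK1 to PDK3 differed by -0.45, that of PDK1 to PDK2 by -0.31 and that of PDK1 to PDK4 by 0.13. PDK2 to PDK4 differed by 0.43 and PDK2 to PDK3 by -0.14. For ratios between kinases no share over all probe sets was taken. A ratio shows that 2 transcripts differed unequally, and no p is given for these, since the members were chosen with earlier results known.

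**Figure D3:**
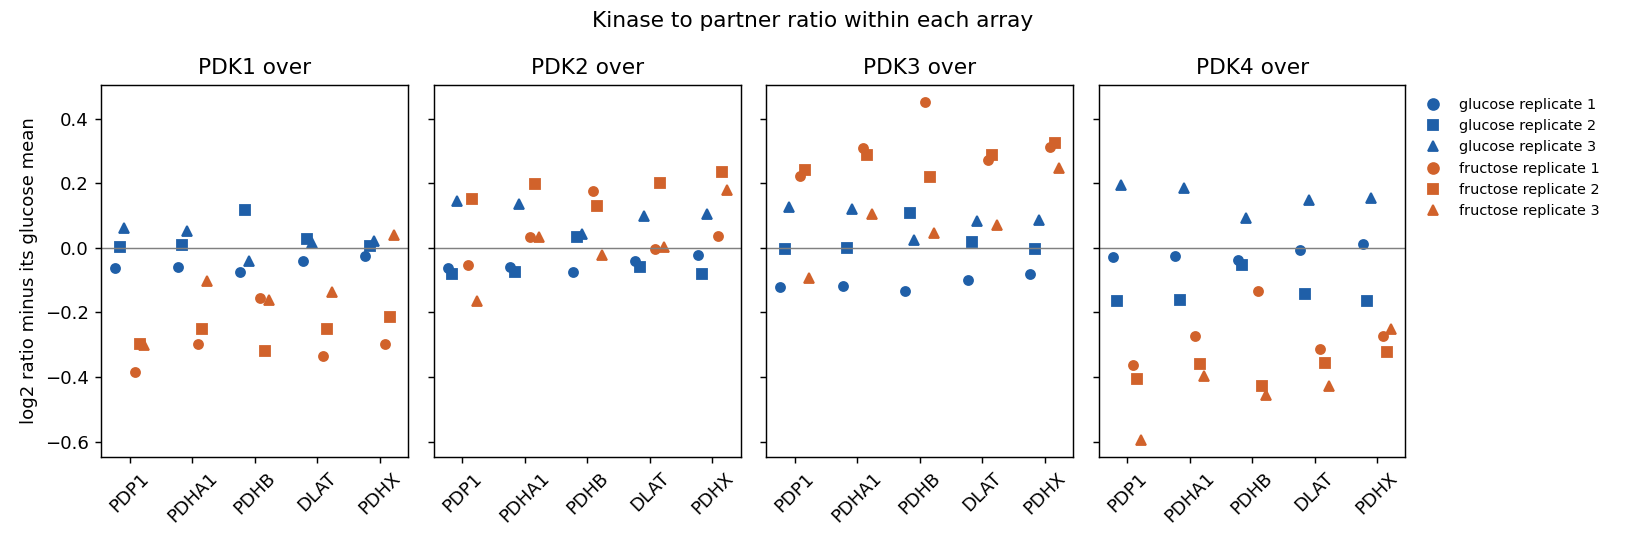
Log2 ratio of each kinase to PDP1, PDHA1, PDHB, DLAT and PDHX within each array, minus the mean of that ratio in glucose (blue, glucose; orange, fructose; circles, squares and triangles for replicates 1, 2 and 3). The points of a panel share the values of 1 kinase, and the mean log2 differences run from -0.45 to -0.28 for PDK4, from -0.33 to -0.16 for PDK1, from -0.02 to 0.15 for PDK2 and from 0.12 to 0.29 for PDK3.

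Genes around the complex were taken from 5 fixed lists with 41 members, of which 39 were measured. None passed the adjusted threshold. At an unadjusted p under 0.05, 5 of the 39 were higher in fructose (7.65% of all probe sets) and 1 was lower (5.43%). Groups did not overlap for 7 that were higher (11.4% of all probe sets) and 4 that were lower (8.81%), and the median difference was 0.05.

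The single gene that was lower at an unadjusted p under 0.05 was DLD, the E3 subunit that the complex shares with its sister complexes. DLD read 640, 624 and 605 in glucose and 533, 571 and 508 in fructose. No fructose array reached the glucose range, and the log2 difference was -0.21 (SE 0.07, 95% interval -0.39 to -0.04, limma adjusted p = 0.30). The mitochondrial pyruvate carrier, which brings the substrate in, is made of MPC1 and MPC2, and these did not point one way. MPC1 differed by 0.13 (95% interval -0.12 to 0.38) with overlapping groups, and MPC2 by -0.13 (95% interval -0.33 to 0.06) with fructose arrays at 309, 313 and 266 below glucose arrays at 324, 327 and 319. PDPR, the regulatory subunit of the PDP1 phosphatase, differed by -0.14 (95% interval -0.34 to 0.07), opposite in sign to PDP1 itself. The list of pyruvate entry and shared parts had 2 of 6 members higher and 4 lower, with a median of -0.10.

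Genes that supply lipoate, iron-sulphur clusters and thiamine, cofactors without which the complex cannot work, had a median of 0.04, with 6 of 10 higher. The thiamine transporter SLC19A2 read 80.4, 77.4 and 83.0 in glucose and 97.0, 86.5 and 91.6 in fructose, higher on each fructose array. Its log2 difference was 0.19 (SE 0.07, limma adjusted p = 0.34), and LIPT2, a lipoate transferase, differed by 0.16 (limma adjusted p = 0.49).

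The sister complexes handle 2-oxoglutarate and branched-chain keto acids, and the branched-chain complex has a kinase and a phosphatase of its own. Their list had a median of 0.05, with 6 of 9 higher. That median was -0.02 without glucose replicate 1, 0.01 without fructose replicate 2 and 0.11 without fructose replicate 3. PPM1K, the phosphatase that activates the branched-chain complex, read 38.8, 43.6 and 43.2 in glucose and 49.8, 48.0 and 52.1 in fructose, without overlap. The difference was 0.26 (SE 0.08, limma adjusted p = 0.25). OGDH, the E1 of the 2-oxoglutarate complex, differed by 0.18 (limma adjusted p = 0.39), also without overlap.

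Factors that regulate PDK transcription had a median of 0.09, with 7 of 10 higher in fructose. EPAS1, the hypoxia factor HIF-2 alpha, read 63.2, 73.1 and 72.1 in glucose and 108.6, 86.2 and 91.4 in fructose. It was higher on each fructose array, by 0.45 (SE 0.11, 95% interval 0.20 to 0.71, limma adjusted p = 0.20). PPARA, a fatty acid receptor that drives PDK4 in other tissues, read 35.1, 36.2 and 37.2 in glucose and 45.3, 40.3 and 53.5 in fructose, a difference of 0.35 (SE 0.11, limma adjusted p = 0.27). PPARD, named after its value was seen, differed by 0.20 (limma adjusted p = 0.32). None of these 3 factors passed the test, and any link between them and the PDK transcripts was not tested. HIF1A, the factor usually tied to PDK1 and also named after its value was seen, differed by -0.12 (95% interval -0.32 to 0.09), and by -0.04 without glucose replicate 2.

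Of 4 enzymes that modify the complex or its subunits at the protein level, 3 were higher and the median was 0.05, and -0.02 without glucose replicate 1. SIRT4, a mitochondrial sirtuin that can remove lipoate from DLAT, was dim and read 33.1, 31.5 and 22.7 in glucose and 25.3, 19.8 and 22.2 in fructose. Glucose replicate 3 lay within the fructose range, and the difference was -0.36 (SE 0.16, limma adjusted p = 0.39). SIRT5 differed by 0.09 (limma adjusted p = 0.63).

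**Figure D4:**
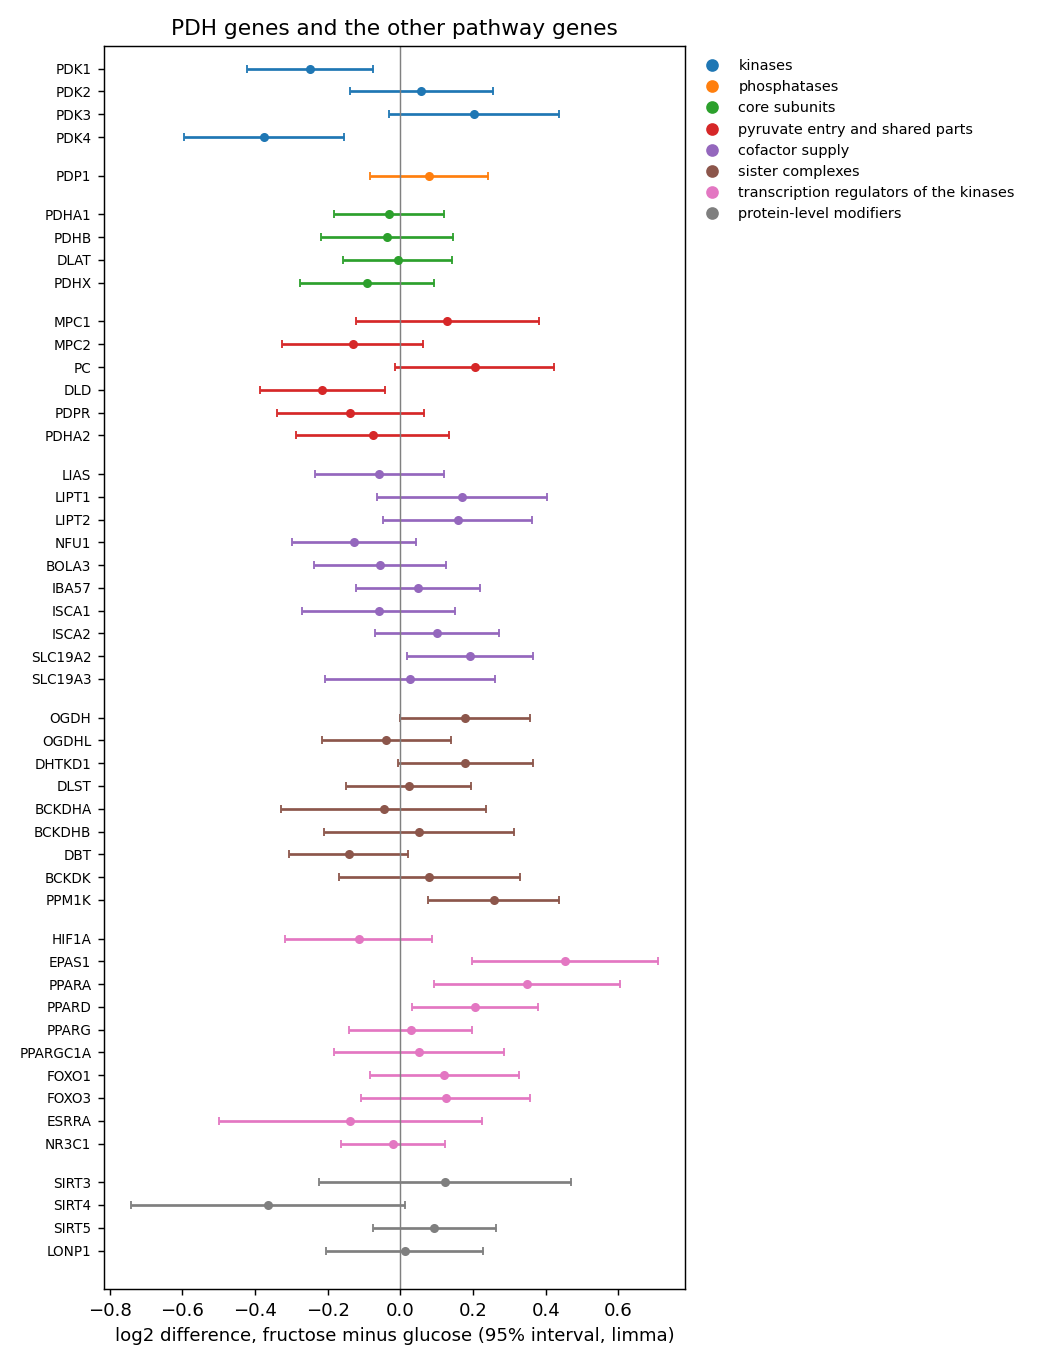
Log2 difference (fructose minus glucose, points) with its 95% interval from limma (bars) for the 9 measured members and the 39 measured genes of the 5 further lists, coloured by list. The intervals of PDK1, PDK4 and DLD lie below 0 and those of SLC19A2, PPM1K, EPAS1, PPARA and PPARD above it, before any adjustment for the number of probe sets.

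PDK4 had the smallest p of the members, and the genes most like it were sought over the 6 arrays. The measure was the root mean square difference between log2 values centred on each gene's own mean. Only genes brighter than the median probe set were compared, a mark that PDK4 itself did not reach. The nearest were P4HA1 at 0.03, ZNF174 at 0.04, and SNORD13P3, TMX3 and MLF1 at 0.05, 0.05 and 0.06, against a median of 0.23 over these genes. A gene with no change over the arrays would stand at 0.21. Because the 5 genes were chosen to match PDK4, their log2 differences between the sugars were bound to be near that of PDK4. They lay between -0.39 for TMX3 and -0.33 for SNORD13P3, and none passed the adjusted threshold. With 6 arrays and so large a set of genes to choose from, close matches are a description of these arrays alone.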

How the data were processed

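Expression was measured in 6 MDA-MB-231 cultures, 3 on glucose and 3 on fructose, 1 array each. Per the submitters' processing notes the authors used RMA for the deposited intensities (version, program and build: not given in the sources used here). Since the values reached 9287, their scale was taken to be linear, and log2 was applied without a pseudocount. Of 32321 probe sets, 4091 with identifiers below the lowest one paired with a gene were read as controls and left out. For each gene the brightest probe set with 1 symbol, by mean log2, was kept.

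Differences are fructose minus glucose. They were fitted in R 4.3.3 by limma 3.58.1 (lmFit, then eBayes, two-sided, no covariate) and adjusted by Benjamini-Hochberg over 28230 probe sets at a threshold of 0.05. The procedure was tested on simulated data. Named beside the members were MPC1, MPC2, DLD and PDPR, the 2 genes with the smallest p of each of the other 4 further lists, the 5 genes most like the leading member, TXNIP and line markers. Members and lists were chosen with earlier results of these data known. Some members of the further lists are not reported here. Same-numbered arrays of the sugars were not taken as pairs, since their deviations from the group means correlated at -0.03, -0.02 and -0.05. Promoter letters were counted on both strands. Arrays carry no read depth, and their number limits the precision.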

Additional observations from a re-analysis of the deposited data

How the results depend on the processing

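The 17 alternatives gave 152 values for the 9 members, and none passed the adjusted threshold (lowest limma adjusted p 0.089). The sign held in 146. It turned for DLAT without glucose replicate 2, fructose replicate 2 or fructose replicate 3 (between -0.031 and 0.0070 with an array left out), after repeated quantile normalization (0.0015) and with array weights (8.00e-04), and for PDHB without fructose replicate 1 (0.016, and -0.073 at the lowest with an array left out). With an array left out, PDK1 ran from -0.29 to -0.22, PDK4 from -0.43 to -0.30, PDK3 from 0.14 to 0.28 and PDK2 from 0.0035 to 0.11. PDK4 stood at -0.22 with a pseudocount of 16 and was too dim to enter the fit of bright probe sets alone. The kinase median minus that of the other members stayed between -0.10 and -0.05. The count of probe sets past the threshold, 1 in the report, was 325 among bright probe sets alone, 473 with an intensity trend and robust variances, 202 with the pseudocount, 35 both when probe sets of a gene were averaged and with representative probe sets alone, and 0 with the unmoderated test (3694 at an unadjusted p under 0.05 in limma's moderated test). The cause was not tested. It was 1 with any array left out. With the replicate block the count was 1 and PDK1 and PDK4 had limma adjusted p values of 0.42 and 0.39, and no glucose array correlated best with the fructose array of its own number. With an array left out, list medians ran from -0.13 to -0.06 for pyruvate entry and shared parts, from 0.01 to 0.08 for cofactor supply, from 0.05 to 0.11 for the PDK regulators, from -0.02 to 0.11 for the sister complexes and from -0.02 to 0.09 for the protein-level modifiers. Of 19 further named genes, TMX3 (in 3 alternatives) and P4HA1 (in 2) passed in some alternatives, and none reversed.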
